A study of Sus scrofa with 105 samples.

Results

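The members described here are 10 mature microRNAs (miRNAs), both arms of the 5 porcine precursors miR-139, miR-423, miR-885, miR-769 and miR-296, out of 448 miRNAs in brain libraries of female piglets (Sus scrofa) after diffuse traumatic brain injury. One arm of each precursor was chosen because it was lower 1 day after injury than in sham animals in both brain regions: ssc-miR-139-3p, ssc-miR-423-5p, ssc-miR-885-3p, ssc-miR-769-3p and ssc-miR-296-3p, called the lowered arms below. The partner arms ssc-miR-139-5p, ssc-miR-423-3p, ssc-miR-885-5p, ssc-miR-769-5p and ssc-miR-296-5p were taken for being the other arm of the same hairpin. The prefix ssc, for the pig, is left off from here on. The difference between 1 day and sham therefore chose the members, and it is given below as a description with no test. Each of the 10 names matched 1 entry among the 542 of the count table, and all 10 members passed the filter on low counts in both regions.

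A miRNA gene is transcribed as a long RNA that folds into a hairpin, and the hairpin is cut by Drosha in the nucleus and by Dicer in the cytoplasm into a short duplex with a 5p and a 3p arm. Usually one arm is loaded into an Argonaute protein, where it guides the repression of messenger RNAs with matching sites, and the other is released and degraded, although both arms of some precursors are loaded. Both arms come from the same transcript, and the ratio of their counts within a library does not depend on library scaling. The ratio between arms carries the ligation and amplification bias of each sequence, so it is read here between groups of libraries and not as a ratio of molecules. By name and position in the RefSeq table of the pig assembly, miR-139 lies within the span of PDE2A, which encodes a phosphodiesterase that breaks down cyclic nucleotides, miR-423 within NSRP1, which encodes a nuclear speckle splicing factor, and miR-885 within ATP2B2, which encodes a calcium pump of the plasma membrane. No protein-coding gene of that table overlaps miR-769 or miR-296, and the nearest to miR-296 is GNAS, an imprinted gene of a G protein subunit. The 5 precursors lie on 5 different chromosomes.

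Small RNA had been sequenced from fixed, paraffin-embedded tissue of 2 regions, the hippocampus together with the amygdala (also called hippocampal below) and the frontal lobe. The 4 groups were injured piglets treated with cyclosporine A (CsA, which inhibits calcineurin in immune cells and is used to prevent graft rejection) with 30 hours of survival, untreated injured piglets at 1 week (6 to 8 days), untreated injured piglets at 1 day, and untreated sham or naive piglets (labelled Sham/Naïve, survival 0 to 8 days). CsA (20 mg/kg per day, by vein) began with a loading dose at 6 hours and went on as an infusion for 24 hours. The 105 libraries came from 53 animal codes, of which 52 gave both regions. In the order CsA, 1 week, 1 day and sham, the groups held 10, 15, 10 and 18 libraries of the hippocampus with amygdala and 9, 15, 10 and 18 of the frontal lobe. The sham and naive animals carry 1 label and cannot be told apart. Each code is taken as 1 animal, although the study's design text speaks of 50 subjects, and p-values measure the spread between these libraries.

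Libraries held 98008 to 12703535 counts (median 7257404), and the 3 libraries below 1000000 counts were all sham. Median totals in the hippocampus with amygdala were 9243072.5 with CsA, 6861927 at 1 week, 9223635 at 1 day and 5365075 in sham animals, and in the frontal lobe 8438371, 6816575, 9866050 and 4679652. Depth thus moved with the groups, and so did the share of counts taken by let-7 and miR-98, whose median was 75.2%, 76.7%, 72.8% and 79.1% in the hippocampus with amygdala and 77.8%, 76.2%, 75.9% and 80.5% in the frontal lobe in the same order. Neuronal markers were all present, with median summed levels of 36714 to 43211 CPM (counts per 1000000 of the scaled library size) over the 8 groups, and markers of oligodendrocytes, astrocytes, microglia with leukocytes, erythrocytes and endothelium were present in all groups at lower sums. In bulk tissue, fewer cells of a type and less miRNA per cell cannot be told apart.

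The animal codes begin with different numbers, whose meaning the labels do not give, and some sham libraries stood apart by them. In the hippocampus with amygdala, miR-139-3p ran from 380.2 to 735 CPM in the 5 sham libraries whose codes begin with 12 or 13, from 974 to 1502 CPM in the 6 whose codes begin with 11 and from 636 to 1418 CPM in the other 7. Frontal levels of the same 3 sets ran from 123 to 639 CPM, 472 to 1214 CPM and 441 to 967 CPM. The sham libraries of codes 12 and 13 thus lay lowest in the hippocampus with amygdala, within the range of the 1 day libraries for some animals. The CsA group held 5 animals with codes 11 (4 in the frontal lobe) and 5 with codes 12 or 13, the 1 week group 4 with codes 11 and none with 12 or 13, and the 1 day group 5 of each. All CsA and 1 day codes carried a letter U, against 9 of 15 codes at 1 week and 6 of 18 in sham animals. Results are therefore given over all libraries and within these sets of codes, and the part of the codes, the depth and the let-7 share in them was not tested beyond the values given. No set holds the whole code alike. Codes beginning with 11, 12 or 13 all carried the letter U at 1 day and with CsA, and none did at 1 week or in sham animals. The letter U codes at 1 week and in sham animals began with other numbers. Within a set, a difference of 1 day or CsA from 1 week or sham thus cannot be told apart from the rest of the code.

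The members differed widely in level. In sham hippocampus with amygdala, the median level was 10141 CPM for miR-139-5p, 2372 for miR-423-5p, 1011 for miR-296-3p and 1001 for miR-139-3p. It was 258 CPM for miR-769-5p, 193 for miR-885-3p, 144 for miR-769-3p, 58.7 for miR-423-3p, 19.4 for miR-885-5p and 7.16 for miR-296-5p. The neighbours miR-296-3p and miR-139-3p overlapped over nearly their whole ranges, and miR-769-5p, miR-885-3p and miR-769-3p overlapped in part. The lowered arm was thus the more abundant arm for miR-423 and miR-296 in every library, and the less abundant one for miR-139 and miR-769 in every library. For miR-885 the lowered 3p arm was above the 5p arm in all 18 sham libraries of each region, but in 6 of 10 frontal libraries at 1 day.

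miR-139-3p had a lowest, median and highest level of 296, 586 and 1058 CPM with CsA, 362, 856 and 1438 CPM at 1 week, 244, 399.8 and 579 CPM at 1 day and 380.2, 1001 and 1502 CPM in sham animals in the hippocampus with amygdala. Its frontal values were 100.0, 204 and 506 CPM with CsA, 210.4, 442 and 1176 CPM at 1 week, 112, 175 and 262 CPM at 1 day and 123, 628 and 1214 CPM in sham animals. The 1 day and CsA libraries formed the low end and the 1 week and sham libraries the high end, and all groups overlapped. The frontal mean of miR-139-3p was 175 ± 55.7 CPM at 1 day against 623 ± 294 CPM in sham animals (SD, n = 10 and 18), a fitted log2 difference of -1.83 or 3.55-fold lower. The mean in the hippocampus with amygdala was 412 ± 113 CPM at 1 day against 972 ± 363 CPM in sham animals, with a log2 difference of -1.24. Its partner miR-139-5p, the abundant arm, had 7202, 7901 and 9938 CPM with CsA, 5266, 7452 and 11374 CPM at 1 week, 6446, 7777 and 8503 CPM at 1 day and 5539, 7213 and 11961 CPM in sham animals in the frontal lobe. These ranges lay on top of each other, and the log2 difference between 1 day and sham was 0.03 there and 0.17 in the hippocampus with amygdala.

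miR-885-3p showed the largest 1 day difference of the 5 lowered arms in both regions. Its lowest, median and highest levels were 37.2, 79.7 and 163 CPM with CsA, 37.9, 117 and 330.1 CPM at 1 week, 27.0, 51.6 and 87.8 CPM at 1 day and 52.4, 193 and 309 CPM in sham animals in the hippocampus with amygdala, and 31.6, 49.1 and 145 CPM with CsA, 52.8, 117 and 512 CPM at 1 week, 28.3, 46.6 and 82.5 CPM at 1 day and 39.0, 212 and 499.8 CPM in sham animals in the frontal lobe. The log2 difference between 1 day and sham was -1.75 in the hippocampus with amygdala and -2.03 in the frontal lobe, and leaving out each library in turn kept it within -1.86 to -1.68 and -2.15 to -1.89. Its partner miR-885-5p, measured in human serum as a marker of liver disease, lay the other way. miR-885-5p had 21.2, 35.3 and 50.8 CPM with CsA, 9.69, 35.4 and 48.7 CPM at 1 week, 35.2, 39.3 and 46.3 CPM at 1 day and 0, 24.5 and 42.0 CPM in sham animals in the frontal lobe, so that the 1 day libraries sat in the upper part of the sham range or above it. The frontal sham library with 0 counts had a total of 98008, for which a count of 0 allows up to 46.6 CPM (3 counts over the scaled library size, counting error only), above the highest sham level. The medians of miR-885-5p in the hippocampus with amygdala were 25.2 CPM with CsA, 22.8 CPM at 1 week, 28.1 CPM at 1 day and 19.4 CPM in sham animals. The log2 difference between 1 day and sham was 0.51 in the hippocampus with amygdala and 0.59 in the frontal lobe.

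miR-769-3p, the less abundant arm of a precursor of few known roles, had 31.8, 68.4 and 122 CPM with CsA, 41.3, 85.5 and 236 CPM at 1 week, 24.3, 45.2 and 68.6 CPM at 1 day and 59.5, 144 and 263 CPM in sham animals in the hippocampus with amygdala. Frontal libraries had 18.6, 47.8 and 69.6 CPM with CsA, 31.2, 62.8 and 201 CPM at 1 week, 15.0, 32.2 and 46.0 CPM at 1 day and 29.1, 101 and 188 CPM in sham animals. The 1 day and sham ranges touched only at their ends in the hippocampus with amygdala and overlapped more in the frontal lobe, with log2 differences of -1.58 and -1.68. The partner miR-769-5p differed little in any group, with frontal medians of 219 CPM with CsA, 227 CPM at 1 week, 218 CPM at 1 day and 213 CPM in sham animals. Its log2 difference between 1 day and sham was -0.14 in the hippocampus with amygdala. The frontal value of -0.08 for miR-769-5p changed its sign with the scaling, to 0.00254 with RLE size factors, and carries no direction.

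miR-423-5p, a ubiquitous miRNA that is also measured in human plasma as a marker of heart failure, was the most abundant lowered arm. It had a lowest, median and highest level of 523, 1342 and 2315 CPM with CsA, 575, 1469.8 and 3639.8 CPM at 1 week, 354, 852 and 1398 CPM at 1 day and 631, 2372 and 3658 CPM in sham animals in the hippocampus with amygdala, and 243, 415 and 1098 CPM with CsA, 488, 931 and 3003 CPM at 1 week, 220.2, 416 and 723 CPM at 1 day and 264, 1545 and 3704 CPM in sham animals in the frontal lobe. The highest 1 day library lay below the sham median in both regions. The log2 difference between 1 day and sham was -1.31 in the hippocampus with amygdala and -1.97 in the frontal lobe, and the partner miR-423-3p lay in the same direction with -0.82 and -1.14. The medians of miR-423-3p in the frontal lobe were 21.9 CPM with CsA, 34.4 CPM at 1 week, 20.2 CPM at 1 day and 49.3 CPM in sham animals. Both arms of miR-423 were thus low together.

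miR-296-3p, the major arm of a precursor near the imprinted GNAS locus, had 319, 596 and 1072 CPM with CsA, 387, 812 and 1377 CPM at 1 week, 206, 455 and 619 CPM at 1 day and 434, 1011 and 1582 CPM in sham animals in the hippocampus with amygdala. Frontal miR-296-3p had 148, 231 and 537 CPM with CsA, 219, 466 and 1176 CPM at 1 week, 118, 196 and 314 CPM at 1 day and 152, 634 and 1162 CPM in sham animals. The log2 difference between 1 day and sham was -1.17 in the hippocampus with amygdala and -1.61 in the frontal lobe. The partner miR-296-5p, described in human endothelial cells as a miRNA of vessel growth, was rare, with as few as 1 count in a frontal sham library, and had frontal medians of 4.35 CPM with CsA, 4.81 CPM at 1 week, 2.61 CPM at 1 day and 6.38 CPM in sham animals. Its log2 differences were -0.75 and -1.15, again in the direction of its major arm. Every 1 day library lay below the sham median for each of the 5 lowered arms in both regions. Among all miRNAs tested, 20.3% of 290 in the hippocampus with amygdala and 26.1% of 284 in the frontal lobe were lower at 1 day at an adjusted p under 0.05, given only as the background for members that were chosen on this difference.

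Within sets of codes the 1 day difference varied, most of all in the hippocampus with amygdala. Among codes 11 (5 libraries at 1 day, 6 sham) the log2 differences there were -1.65 for miR-139-3p, -1.87 for miR-423-5p, -2.01 for miR-885-3p, -1.88 for miR-769-3p and -1.64 for miR-296-3p. Among codes 12 and 13 (5 libraries at 1 day, 5 sham) they were -0.42, -0.11, -0.71, -0.96 and -0.24 in the same order. The frontal differences ran from -2.01 to -1.63 among codes 11 and from -1.60 to -0.90 among codes 12 and 13. The sign was kept in both sets, although the 1 day and sham codes in each still differed by the letter U. The size of the hippocampal difference was smaller where the sham libraries themselves were low.

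**Figure D1:**
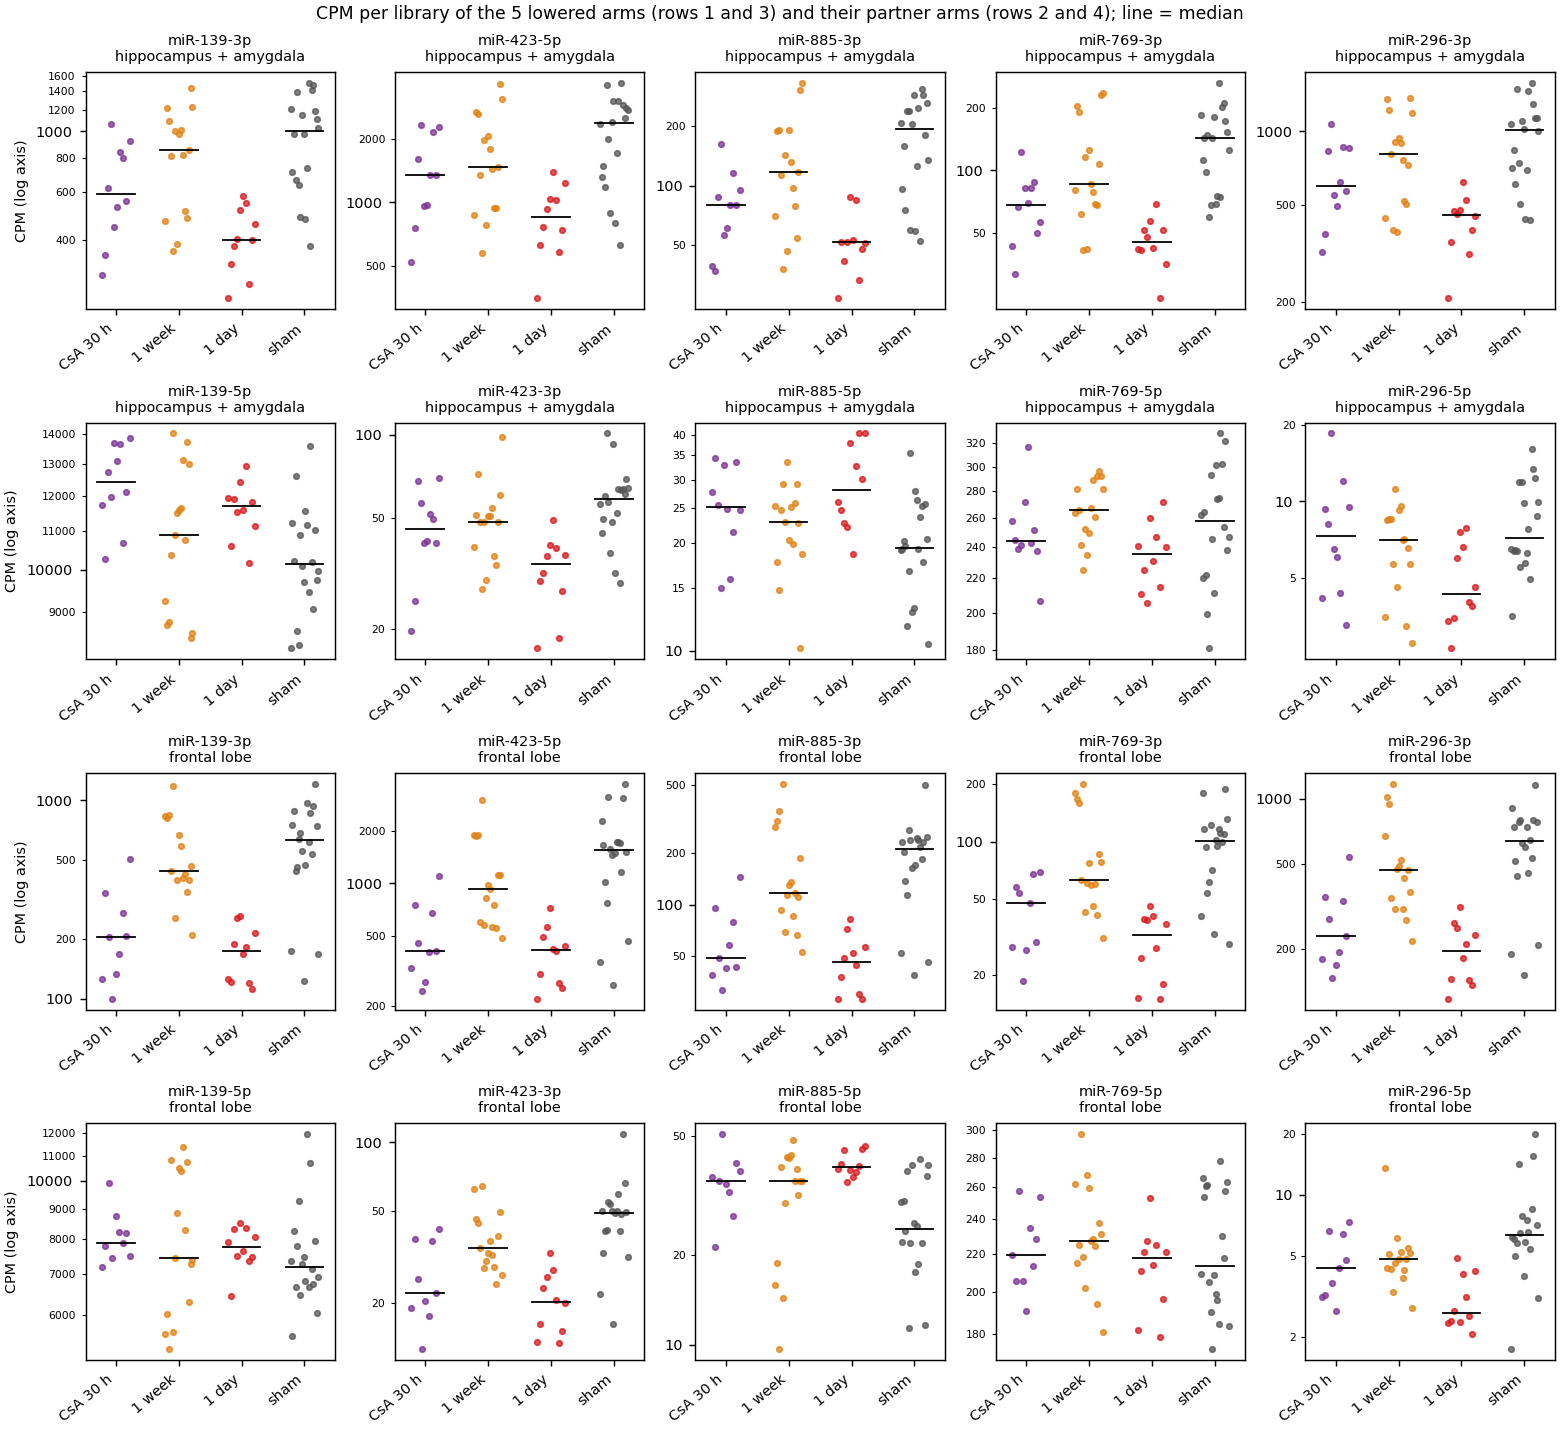
Levels of the 10 members in CPM (log axis) by group, with 1 point per library and a bar at the median; rows show the lowered arms and their partner arms in the hippocampus with amygdala and then in the frontal lobe, and columns show the 5 precursors. The lowered arms are lowest at 1 day and with CsA, while miR-139-5p and miR-769-5p are nearly level, and 1 frontal sham library with 0 counts of miR-885-5p is not drawn.

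The share of the lowered arm in the counts of its precursor showed 3 patterns. For miR-885 the lowest, median and highest share of the 3p arm was 38.4%, 58.1% and 81.8% with CsA, 59.8%, 75.9% and 97.4% at 1 week, 38.4%, 53.0% and 68.3% at 1 day and 53.6%, 88.3% and 100.0% in sham animals in the frontal lobe. By median, the frontal counts of the arms were thus unequal in sham libraries and close to equal at 1 day. In the hippocampus with amygdala the median 3p share was 66.3% at 1 day and 92.0% in sham animals, so the counts stayed unequal there. For miR-139 the frontal medians of the 3p share were 2.01% with CsA, 5.37% at 1 week, 2.14% at 1 day and 7.28% in sham animals, and for miR-769 they were 16.9% with CsA, 21.1% at 1 week, 12.6% at 1 day and 30.8% in sham animals. For these 3 precursors the arms parted, with log2 differences of the arm ratio between 1 day and sham of -2.65 for miR-885, -1.73 for miR-139 and -1.56 for miR-769 in the frontal lobe. Hippocampal values were -2.18, -1.36 and -1.37 in the same order. For miR-423 and miR-296, whose arms differed in the same direction, the ratio differed less, by -0.60 and -0.32 in the frontal lobe and by -0.40 and -0.35 in the hippocampus with amygdala. The hippocampal value of miR-423 turned to 0.24 within codes 12 and 13.

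Among 58 precursors with both arms measured in both regions, ordered by the smaller of the absolute 1 day differences in the 2 regions, miR-885 ranked 1, miR-769 ranked 5, miR-139 ranked 6, miR-423 ranked 25 and miR-296 ranked 28. The precursors between miR-885 and miR-769 were miR-4331, with a log2 difference of the 3p over the 5p arm of -2.06 in the hippocampus with amygdala and -2.16 in the frontal lobe, miR-7139 with -1.85 and -2.04, and miR-574 with 1.78 and 1.95. These ranks rest on the contrast that chose the members and are a description.

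**Figure D2:**
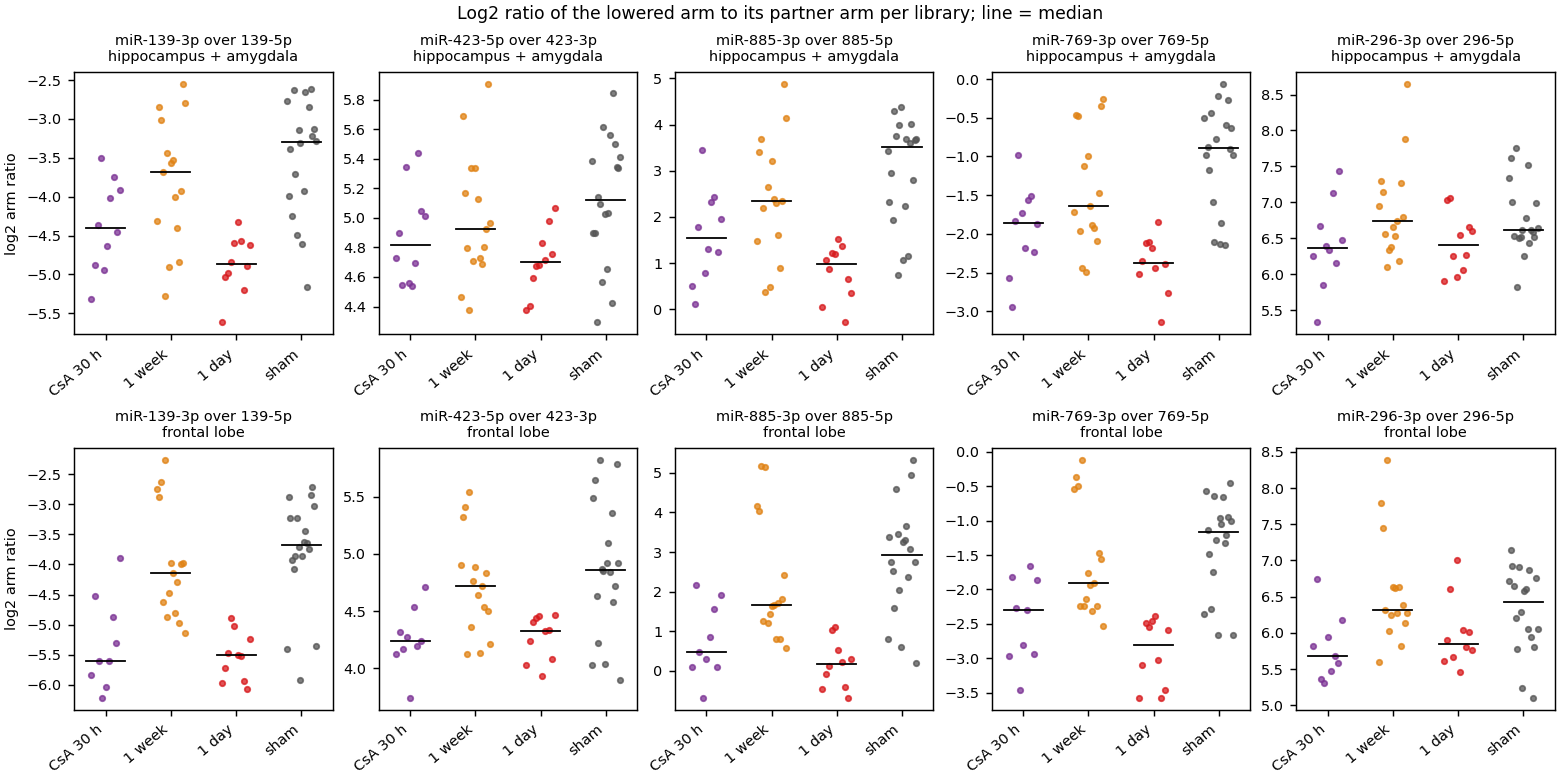
Log2 ratio of the lowered arm over its partner arm per library (0.5 added to each count) by group, with a bar at the median; the top row is the hippocampus with amygdala, the bottom row the frontal lobe. The ratios of miR-139, miR-885 and miR-769 are lowest at 1 day and with CsA, while those of miR-423 and miR-296 differ less between groups.

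At 1 week the lowered arms stood above their 1 day levels in both regions. In the frontal lobe miR-885-3p was 3.63-fold higher at 1 week than at 1 day, and miR-139-3p was 3.15-fold higher, with all 15 libraries at 1 week above the 1 day median for both. The log2 differences (1 week minus 1 day) in the frontal lobe were 1.86 (SE 0.36, adjusted p = 0.000182) for miR-885-3p, 1.65 (SE 0.30, adjusted p = 0.000182) for miR-139-3p and 1.57 (SE 0.31, adjusted p = 0.000182) for miR-769-3p. They were 1.48 (SE 0.34, adjusted p = 0.00103) for miR-423-5p and 1.41 (SE 0.28, adjusted p = 0.000182) for miR-296-3p by edgeR's quasi-likelihood test with Benjamini-Hochberg adjustment over all 284 miRNAs. The partner arms miR-423-3p and miR-296-5p also rose, with 0.89 (SE 0.21, adjusted p = 0.000904) and 0.73 (SE 0.24, adjusted p = 0.0162), the second of which was lost without 1 week replicate 1 (adjusted p = 0.0506). miR-139-5p, miR-769-5p and miR-885-5p did not pass, with 0.07, 0.12 and -0.32. Thus 7 of 10 members were higher, against 23.2% of all miRNAs tested that were higher and 35.9% that differed in either direction. The lowered arms were chosen for being low in these same 1 day libraries, which favours a higher level at 1 week in advance. The median log2 difference was 1.57 over the lowered arms, 0.12 over the partner arms and 0.04 over all miRNAs tested.

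In the hippocampus with amygdala, 6 of 10 members were higher at 1 week than at 1 day, against 11.7% of all 290 miRNAs that were higher and 29.3% that differed. The log2 differences were 1.39 (SE 0.32, adjusted p = 0.00266) for miR-885-3p, 1.31 (SE 0.27, adjusted p = 0.00126) for miR-769-3p and 1.03 (SE 0.23, adjusted p = 0.00266) for miR-139-3p. miR-423-5p and miR-296-3p differed by 1.00 (SE 0.29, adjusted p = 0.00752) and 0.96 (SE 0.23, adjusted p = 0.00266), and of the partner arms miR-423-3p differed by 0.61 (SE 0.20, adjusted p = 0.0147). The other 4 partner arms did not pass, with log2 differences from -0.37 for miR-885-5p to 0.44 for miR-296-5p. The difference between the regions in this contrast was itself tested and called no member, as given with the region values. These comparisons share their 1 day libraries with the choice of the members, so the low level at 1 day enters both.

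The sets of codes gave the same direction, although the rest of the code still differed between 1 week and 1 day within each set. Among animals with codes 11 (4 at 1 week, 5 at 1 day) the lowered arms differed by 1.32 to 1.72 in the frontal lobe (adjusted p = 0.0841 to 0.0926) and by 0.93 to 1.35 in the hippocampus with amygdala (adjusted p = 0.189 to 0.209), and no member passed, nor did any other miRNA (0% in each region). Among animals with a letter U (9 at 1 week, 10 at 1 day) all 5 lowered arms (miR-139-3p, miR-423-5p, miR-885-3p, miR-769-3p and miR-296-3p) passed in both regions, with 0.95 to 1.32 in the frontal lobe and 0.78 to 1.12 in the hippocampus with amygdala. In that set 17.1% of 287 frontal and 13.7% of 291 hippocampal miRNAs were higher. The arm ratios of miR-885, miR-139 and miR-769 were higher at 1 week in both regions, and those of miR-423 and miR-296 did not pass in either. Frontal ratios differed by 2.08 (SE 0.51, adjusted p = 0.00195) for miR-885, 1.55 (SE 0.33, adjusted p = 0.000391) for miR-139 and 1.33 (SE 0.28, adjusted p = 0.000391) for miR-769 by limma over 59 precursors, of which 23.7% passed. Hippocampal ratios differed by 1.59 (SE 0.44, adjusted p = 0.00475), 1.06 (SE 0.28, adjusted p = 0.00475) and 0.97 (SE 0.26, adjusted p = 0.00475) in the same order, with 39% of precursors passing.

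CsA animals at 30 hours against untreated animals at 1 week is the contrast here that shares no library with the choice of the members; in it, treatment and time after injury cannot be told apart. In the frontal lobe all 5 lowered arms and miR-423-3p were lower with CsA. miR-885-3p differed by -1.43 (SE 0.37, adjusted p = 0.0123), miR-139-3p by -1.27 (SE 0.31, adjusted p = 0.0123) and miR-423-5p by -1.15 (SE 0.35, adjusted p = 0.0197). miR-769-3p differed by -1.01 (SE 0.31, adjusted p = 0.0197), miR-296-3p by -0.99 (SE 0.29, adjusted p = 0.0147) and miR-423-3p by -0.57 (SE 0.21, adjusted p = 0.0416). Of the 9 CsA libraries, 8 lay below the 1 week median for each lowered arm except miR-769-3p, with 7, and the groups overlapped. The share of all 284 miRNAs that were lower was 13.4%, and 22.5% differed in either direction. The median log2 difference was -1.15 over the lowered arms, -0.05 over the partner arms and 0.02 over all tested. Without CsA replicate 4 only 3 members passed, since miR-423-5p and miR-769-3p reached an adjusted p of 0.0508 and miR-423-3p was lost as in 10 of the 24 runs that left out 1 library.

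Within sets of codes the frontal difference was smaller. Among codes 11 (4 CsA and 4 libraries at 1 week) the lowered arms differed by -1.12 to -0.78 (adjusted p = 0.569 to 0.641), and 0% of miRNAs passed. Among codes with a letter U, miR-139-3p differed by -1.004 (adjusted p = 0.00264), miR-885-3p by -0.84 (0.0143) and miR-769-3p by -0.51 (0.0946), which no longer passed. The lowered arms other than miR-769-3p were lower there, against 9.41% of 287 miRNAs. At 1 week, frontal miR-139-3p ran from 343 to 668 CPM in the 9 libraries with a letter U and from 210.4 to 1176 CPM in the 6 without. No member passed in the hippocampus with amygdala, against 3.45% of all 290 miRNAs, and 3 members had an unadjusted p under 0.05 against 66 of all 290 miRNAs. Of these 3, miR-769-3p differed by -0.73 (SE 0.26, adjusted p = 0.094) and miR-885-3p by -0.77 (SE 0.31, adjusted p = 0.116), and the partner arm miR-139-5p lay the other way with 0.18 (SE 0.08, adjusted p = 0.187). The lowered arms miR-139-3p, miR-296-3p and miR-423-5p differed there by -0.40, -0.34 and -0.29. DESeq2 called 1 member, miR-769-3p (log2 -0.74, adjusted p = 0.0366), and 10.7% of the 205 miRNAs to which it gave an adjusted p.

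The frontal arm ratios were lower with CsA than at 1 week for 4 of the 5 precursors, against 13.6% of 59 precursors. They differed by -1.34 (SE 0.34, adjusted p = 0.00747) for miR-139, -1.50 (SE 0.53, adjusted p = 0.0491) for miR-885, -0.86 (SE 0.29, adjusted p = 0.042) for miR-769 and -0.79 (SE 0.25, adjusted p = 0.0359) for miR-296 by limma, and by -0.47 for miR-423 (adjusted p = 0.0837). The calls of miR-296, miR-769 and miR-885 were lost in 9, 12 and 13 of the 24 runs that left out 1 library, while that of miR-139 held in all 24. In an exact permutation test over all 1307504 assignments of the 24 libraries miR-769 and miR-885 did not pass (adjusted p = 0.0574 and 0.0654) and miR-423 did (0.0464), with 18.6% of precursors passing. Of the 59 hippocampal precursor ratios, 0% passed by limma, with 3 of the 5 precursors and 20 of all 59 at an unadjusted p under 0.05. The log2 differences of the 5 ran from -0.81 for miR-885 to -0.12 for miR-423.

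Markers of cell types moved with these contrasts in part, and their part in the results was not tested. Between CsA and 1 week in the frontal lobe, 3 of 6 neuronal markers passed, 1 of 3 of oligodendrocytes, 1 of 3 of astrocytes, 1 of 3 of erythrocytes and 1 of 4 of muscle, with 0 of 6 of microglia and leukocytes and 0 of 2 of endothelium. Their summed level ran from 39881 to 47341 CPM with CsA and from 34137 to 47205 CPM at 1 week for neurons, from 1214 to 1679.6 CPM and 1343 to 2139 CPM for oligodendrocytes, and from 63.0 to 238 CPM and 90.7 to 183 CPM for erythrocytes. Between 1 week and 1 day, 3 of 6 neuronal markers, 1 of 3 of astrocytes, 1 of 3 of erythrocytes and 1 of 4 of muscle passed in each region. In the hippocampus with amygdala 1 of 6 of microglia and leukocytes and both endothelial markers also passed, and in the frontal lobe 1 of 3 of oligodendrocytes. The hippocampal endothelial sum ran from 3313 to 6028 CPM at 1 week and from 4744 to 7370.1 CPM at 1 day. No marker of these lists was at 0 in a group. Of all miRNAs tested, 22.5% passed between CsA and 1 week in the frontal lobe. Between 1 week and 1 day, 35.9% of frontal and 29.3% of hippocampal miRNAs passed.

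**Figure D3:**
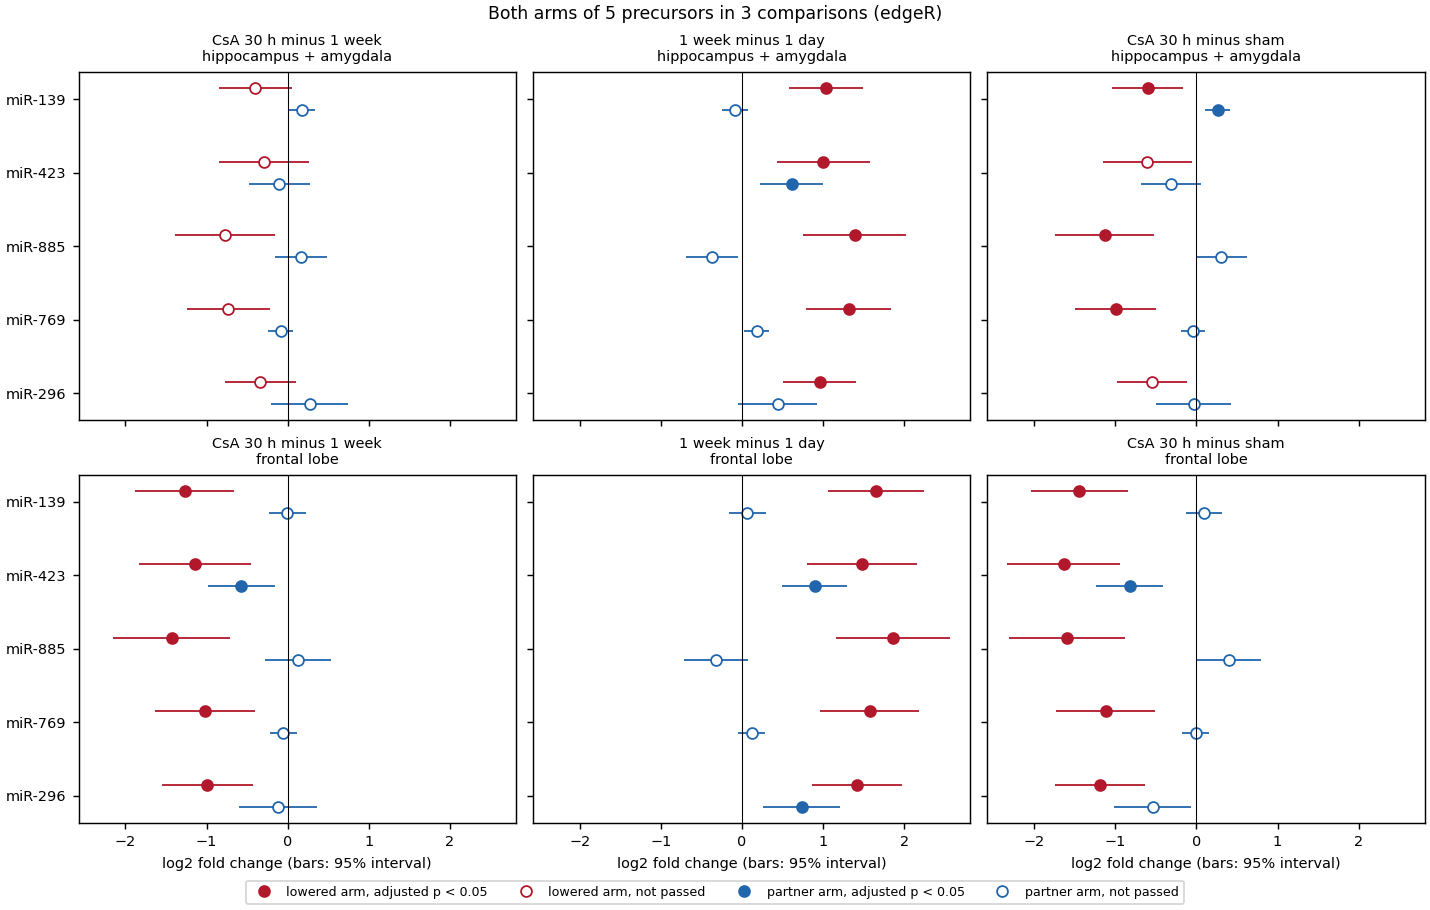
Log2 differences of the 10 members with 95% intervals for CsA minus 1 week, 1 week minus 1 day and CsA minus sham, in the hippocampus with amygdala (top row) and the frontal lobe (bottom row); filled points have an adjusted p under 0.05. In the frontal lobe the 5 lowered arms and miR-423-3p are below 0 with CsA in both contrasts, and above 0 at 1 week.

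Against sham, frontal libraries of CsA animals were lower for all 5 lowered arms and miR-423-3p, and no CsA library lay above the sham median for the lowered arms. miR-423-5p differed by -1.64 (SE 0.35, adjusted p = 0.00128), miR-885-3p by -1.60 (SE 0.36, adjusted p = 0.00142) and miR-139-3p by -1.44 (SE 0.31, adjusted p = 0.00128). miR-296-3p differed by -1.19 (SE 0.28, adjusted p = 0.002), miR-769-3p by -1.12 (SE 0.31, adjusted p = 0.00616) and miR-423-3p by -0.82 (SE 0.21, adjusted p = 0.00367). The share of all 284 miRNAs that were lower was 19.4%, and 34.2% differed. In the hippocampus with amygdala the lowered arms miR-885-3p, miR-769-3p and miR-139-3p were lower with CsA and the partner miR-139-5p was higher, making 4 members against 20.3% of all 290 miRNAs. miR-885-3p differed by -1.13 (SE 0.31, adjusted p = 0.00969) and miR-769-3p by -0.996 (SE 0.26, adjusted p = 0.007). miR-139-3p differed by -0.60 (SE 0.22, adjusted p = 0.0483), a call that was lost in 20 of the 28 runs that left out 1 library. miR-139-5p was 1.20-fold higher, a log2 difference of 0.26 (SE 0.08, adjusted p = 0.0146), with all 10 CsA libraries above the sham median. These contrasts share the sham libraries with the choice of the members.

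Cell-type markers differed between CsA and sham as well, and their part in these values was not tested. In the frontal lobe 3 of 6 neuronal markers passed, 1 of 3 of oligodendrocytes, 1 of 3 of astrocytes, 1 of 6 of microglia and leukocytes, 2 of 3 of erythrocytes, 1 of 2 of endothelium and 1 of 4 of muscle. In the hippocampus with amygdala 1 of 6 neuronal markers passed, 2 of 3 of oligodendrocytes, 1 of 3 of astrocytes, 1 of 3 of erythrocytes and the 1 liver marker measured, with none of the other lists. The frontal sum of the neuronal markers ran from 39881 to 47341 CPM with CsA and from 34042 to 51004 CPM in sham animals, and that of the erythrocyte markers from 63.0 to 238 CPM and 49.7 to 312 CPM. The hippocampal sum of the oligodendrocyte markers ran from 502 to 986 CPM with CsA and from 679 to 1288 CPM in sham animals. The ranges of the groups overlapped in all 3 sums. Between 1 week and sham, and between CsA and 1 day, 0 markers passed.

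The codes and the depth moved these values. Among codes 11 the frontal lowered arms differed by -1.45 to -1.03 (adjusted p = 0.108 to 0.145) and among codes 12 and 13 by -1.59 to -0.49 (0.307 to 0.564), with 0% of miRNAs past the threshold in either set. Hippocampal ones differed by -1.34 to -0.76 among codes 11 and by -0.64 to 0.31 among codes 12 and 13, the upper bounds being those of miR-296-3p and miR-423-5p. With the log10 library total as a covariate the hippocampal lowered arms differed by -0.58 to -0.11 and none passed, against 0.69% of all miRNAs, while the frontal ones differed by -1.17 to -0.68, with miR-769-3p no longer past the threshold (adjusted p = 0.106), the other 4 lower, and 5.63% of all miRNAs lower. The arm ratios of miR-885, miR-139 and miR-769 were lower with CsA than in sham animals in both regions, and that of miR-423 in the frontal lobe. The frontal ratios differed by -2.06 (SE 0.51, adjusted p = 0.00287), -1.52 (SE 0.33, adjusted p = 0.000801), -1.10 (SE 0.28, adjusted p = 0.00302) and -0.62 (SE 0.19, adjusted p = 0.00928) by limma, with 44.1% of precursors passing. Hippocampal ratios of miR-885, miR-139 and miR-769 differed by -1.40 (SE 0.42, adjusted p = 0.0166), -0.87 (SE 0.27, adjusted p = 0.0174) and -0.93 (SE 0.25, adjusted p = 0.00961), with 37.3% of precursors passing.

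Between CsA at 30 hours and untreated injury at 1 day no member passed, nor did any other miRNA (0% of 290 and 0% of 284 by edgeR). In the hippocampus with amygdala the lowered arms had log2 differences of 0.58 to 0.71 (adjusted p = 0.128 to 0.249), with 6 of the 10 members at an unadjusted p under 0.05 against 69 of all 290 miRNAs. The 95% interval was 0.15 to 1.13 for miR-139-3p and -0.04 to 1.28 for miR-885-3p, and 8 of 10 CsA libraries lay above the 1 day median of miR-139-3p. DESeq2 called miR-139-3p and miR-296-3p there (log2 0.66 and 0.64, adjusted p = 0.0485 for miR-139-3p), and 21.1% of the 71 miRNAs to which it gave an adjusted p. Frontal lowered arms differed by 0.33 to 0.56 (adjusted p = 0.931 to 0.978), with 1 member, the partner arm miR-296-5p (log2 difference 0.61), and 12 of all 284 miRNAs at an unadjusted p under 0.05, the interval of miR-139-3p was -0.24 to 1.01, and DESeq2 called 0 members and 0% of all miRNAs. No arm ratio of the 59 precursors passed in either region (0% by limma); at an unadjusted p under 0.05 there were 0 of the 5 precursors in either region, with 2 of 59 in the hippocampus with amygdala and 0 of 59 in the frontal lobe. A difference that misses the threshold does not show that these groups are alike.

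Between 1 week and sham no member passed in either region by edgeR or DESeq2, and none had an unadjusted p under 0.05, against 0.345% of 290 miRNAs in the hippocampus with amygdala and 0% of 284 in the frontal lobe by edgeR, and 1.03% and 0.352% by DESeq2. At an unadjusted p under 0.05 there were 15 of all miRNAs in the hippocampus with amygdala and 19 in the frontal lobe. The lowered arms differed by -0.36 to -0.21 in the hippocampus with amygdala and by -0.49 to -0.11 in the frontal lobe, all on the side of the 1 day difference. The 95% interval of miR-885-3p was -0.88 to 0.16 in the hippocampus with amygdala and -0.73 to 0.40 in the frontal lobe. Among animals with a letter U (9 at 1 week, 6 sham), chosen after the data were seen, all 5 lowered arms were lower at 1 week in the frontal lobe, from -0.92 for miR-885-3p (adjusted p = 0.0178) to -0.76 for miR-139-3p (0.0359), and 10.1% of 287 miRNAs were lower in that set. Of the hippocampal arms 1 was, miR-769-3p (-0.75, adjusted p = 0.0383), against 2.41% of 291. That set of animals leaves out the sham libraries of codes 12 and 13, which stood lowest in the hippocampus with amygdala. These codes also held the lowest frontal sham levels of miR-139-3p, 123, 169 and 174 CPM, within the 1 day range of 112 to 262 CPM. Their other frontal sham levels, 460 and 639 CPM, lay among those of the other codes. The letter U set also leaves out the other sham libraries without the letter and 6 libraries at 1 week in each region. In those 6 hippocampal libraries miR-139-3p ran from 362 to 1438 CPM (median 1155). It ran from 466 to 1013 CPM (median 818) in the 9 at 1 week with the letter. No arm ratio passed over all libraries (0% of 59 in each region), while among animals with a letter U those of miR-139, miR-423, miR-769 and miR-885 were lower in both regions, with 16.7% of 60 precursors passing in the hippocampus with amygdala and 32.8% of 58 in the frontal lobe.

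Both regions of the same animals were compared within each group, with the animal as a block, a comparison that the choice of the members did not use. The lowered arms miR-139-3p, miR-423-5p, miR-296-3p and miR-769-3p were higher in the hippocampus with amygdala than in the frontal lobe in all 4 groups. The log2 difference (hippocampus with amygdala minus frontal lobe) of miR-139-3p was 1.56 with CsA, 0.58 at 1 week, 1.15 at 1 day and 0.69 in sham animals, with adjusted p of 7.89e-08, 0.00411, 1.46e-05 and 0.000234 by edgeR. CPM were scaled within each region, while this fit scaled both regions together. By CPM miR-139-3p was higher in the hippocampus with amygdala in 9 of 9 CsA animals and 15 of 15 at 1 week. It was so in 9 of 10 animals at 1 day and 15 of 18 sham animals. For miR-423-5p the difference was 1.47 with CsA, 0.57 at 1 week, 1.00 at 1 day and 0.51 in sham animals, for miR-296-3p 1.28 with CsA, 0.63 at 1 week, 1.01 at 1 day and 0.65 in sham animals, and for miR-769-3p 0.60 with CsA, 0.32 at 1 week, 0.57 at 1 day and 0.52 in sham animals. miR-885-3p did not pass in any group, with 0.36 with CsA, -0.34 at 1 week, 0.05 at 1 day and -0.16 in sham animals (adjusted p = 0.13 to 0.875).

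Of the partner arms, miR-139-5p was higher in the hippocampus with amygdala in all 4 groups, with 0.55 with CsA, 0.40 at 1 week, 0.48 at 1 day and 0.39 in sham animals. miR-885-5p was lower there in all 4 groups, with -0.56 with CsA, -0.51 at 1 week, -0.59 at 1 day and -0.42 in sham animals (adjusted p = 0.00174 to 0.00695). Its CPM was higher there in 0 of 9 CsA animals, 3 of 15 at 1 week, 2 of 10 at 1 day and 5 of 18 sham animals. miR-423-3p passed with CsA and at 1 day (0.81 and 0.55), miR-296-5p passed with CsA (0.69), and miR-769-5p passed in no group. In all, 8 members passed with CsA, 6 at 1 week, 7 at 1 day and 6 in sham animals, against 57%, 43%, 46.6% and 47.3% of all 298 miRNAs tested, so that a large share of all miRNAs differed between the regions. The arm ratio was higher in the hippocampus with amygdala for 5 of 5 precursors with CsA, 0 at 1 week, 3 at 1 day (miR-139, miR-423 and miR-769) and 2 in sham animals (miR-296 and miR-769), against 26.2%, 3.28%, 16.4% and 13.1% of 61 precursors. For miR-139 the ratio differed by 1.01 with CsA, 0.18 at 1 week, 0.67 at 1 day and 0.30 in sham animals, and for miR-885 by 0.92 with CsA, 0.15 at 1 week, 0.64 at 1 day and 0.17 in sham animals. Without the animals that had a total below 1000000, the sham call of miR-296 was lost (adjusted p = 0.0636) and miR-139 passed (0.045). With a pseudocount of 5, miR-296 also passed at 1 day (0.037).

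Whether the region difference itself differed between groups was tested in the same fit, a test added after the data were seen. No miRNA of 298 passed in any of the 5 contrasts. The nearest members were miR-139-3p, whose region difference was larger with CsA by 0.98 (SE 0.27, adjusted p = 0.0704) than at 1 week and by 0.86 (SE 0.27, adjusted p = 0.0694) than in sham animals, and miR-423-5p with 0.89 (SE 0.33, adjusted p = 0.0955) and 0.96 (SE 0.32, adjusted p = 0.0759). At an unadjusted p under 0.05, CsA minus 1 week had 5 of the 10 members and 77 of all 298 miRNAs, CsA minus sham 4 members and 73 miRNAs, 1 week minus 1 day 1 member and 12 miRNAs, CsA minus 1 day 0 members and 19 miRNAs, and 1 week minus sham 0 members and 8 miRNAs. Of the arm ratios, 3.28% of 61 precursors passed for CsA minus sham, with no member among them, and none passed in the other 4 contrasts.

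**Figure D4:**
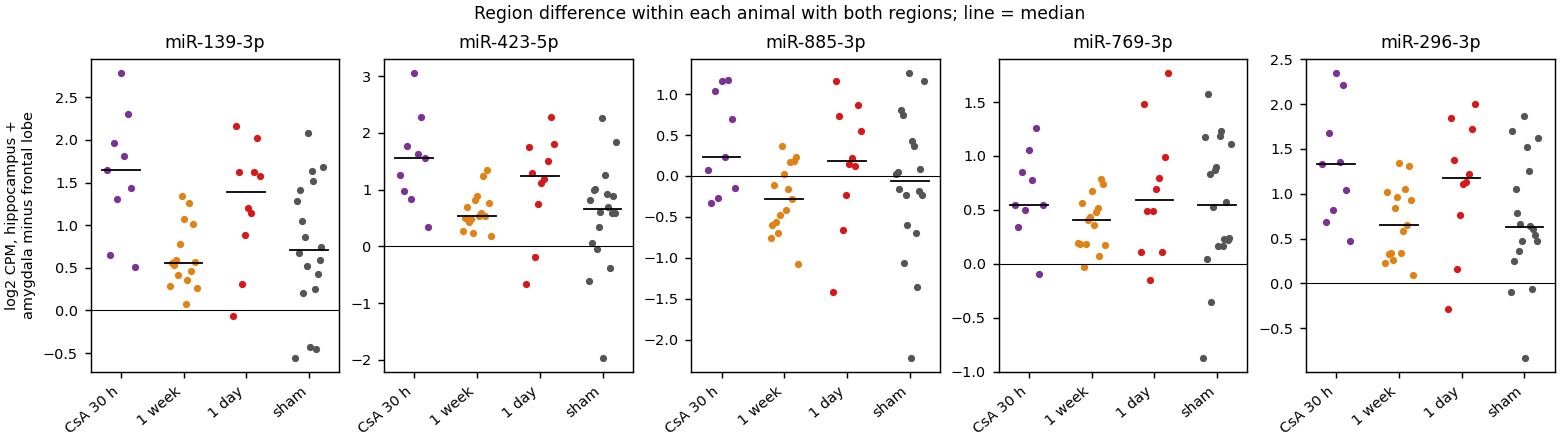
Difference of log2 CPM between the hippocampus with amygdala and the frontal lobe of the same animal, for the 5 lowered arms by group, with 1 point per animal, a bar at the median and a line at 0. CPM are scaled within each region, unlike the tested difference, which scales both regions together. miR-139-3p lies above 0 in all 9 CsA and all 15 animals at 1 week. miR-885-3p lies above 0 in 6 of 9 CsA animals, 5 of 15 at 1 week, 7 of 10 at 1 day and 9 of 18 sham animals.

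Within each group the 5 lowered arms varied together across animals. Spearman's rho over the 10 pairs of lowered arms had a median of 0.733 to 0.958 over the 8 groups (9 to 18 libraries each), with single pairs from 0.321. The partner arms did not share this as a set, with medians of the pairs from -0.234 to 0.297 and single pairs from -0.932 to 0.904. The arms of miR-423 went together in every group (rho 0.806 to 0.952), and the arms of miR-885 ran against each other (-0.103 to -0.889). These are descriptions over libraries that share scaling and depth.

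The miRNAs most like the mean standardised level of the 5 lowered arms, by the lower Spearman's rho of both regions (53 and 52 libraries) among 280 compared, were miR-2366 (0.958), miR-1307 (0.954), miR-193a-5p (0.948), miR-6529 (0.934) and miR-320 (0.924). The mean contains the lowered arms and so spans the group differences that chose them. miR-320 was abundant, with frontal medians of 1156 CPM with CsA, 1839 at 1 week, 1209 at 1 day and 2547 in sham animals. miR-2366 had 369.6, 615, 362 and 789 CPM in the same groups.

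The arm ratios also ran with the size of the library. Over all libraries of a region, Spearman's rho between the log2 arm ratio and the log10 library total was -0.749 in the hippocampus with amygdala (n = 53) and -0.765 in the frontal lobe (n = 52) for miR-139, -0.759 and -0.778 for miR-885, and -0.764 and -0.774 for miR-769. It was -0.490 and -0.595 for miR-423 and -0.227 and -0.319 for miR-296. The relation mixes the groups, whose totals differ. Within the hippocampal groups it was 0.00606 with CsA, -0.818 at 1 week, -0.491 at 1 day and -0.569 in sham animals for miR-139. Over all libraries of a region, though not in every group, larger ones thus held fewer counts of the 3p arms of miR-139, miR-885 and miR-769 relative to their 5p arms. With the log10 total in the model, the hippocampal differences of the arm ratios between CsA and sham did not pass for any of the 5 precursors, nor for any other of the 59 (0%).

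**Figure D5:**
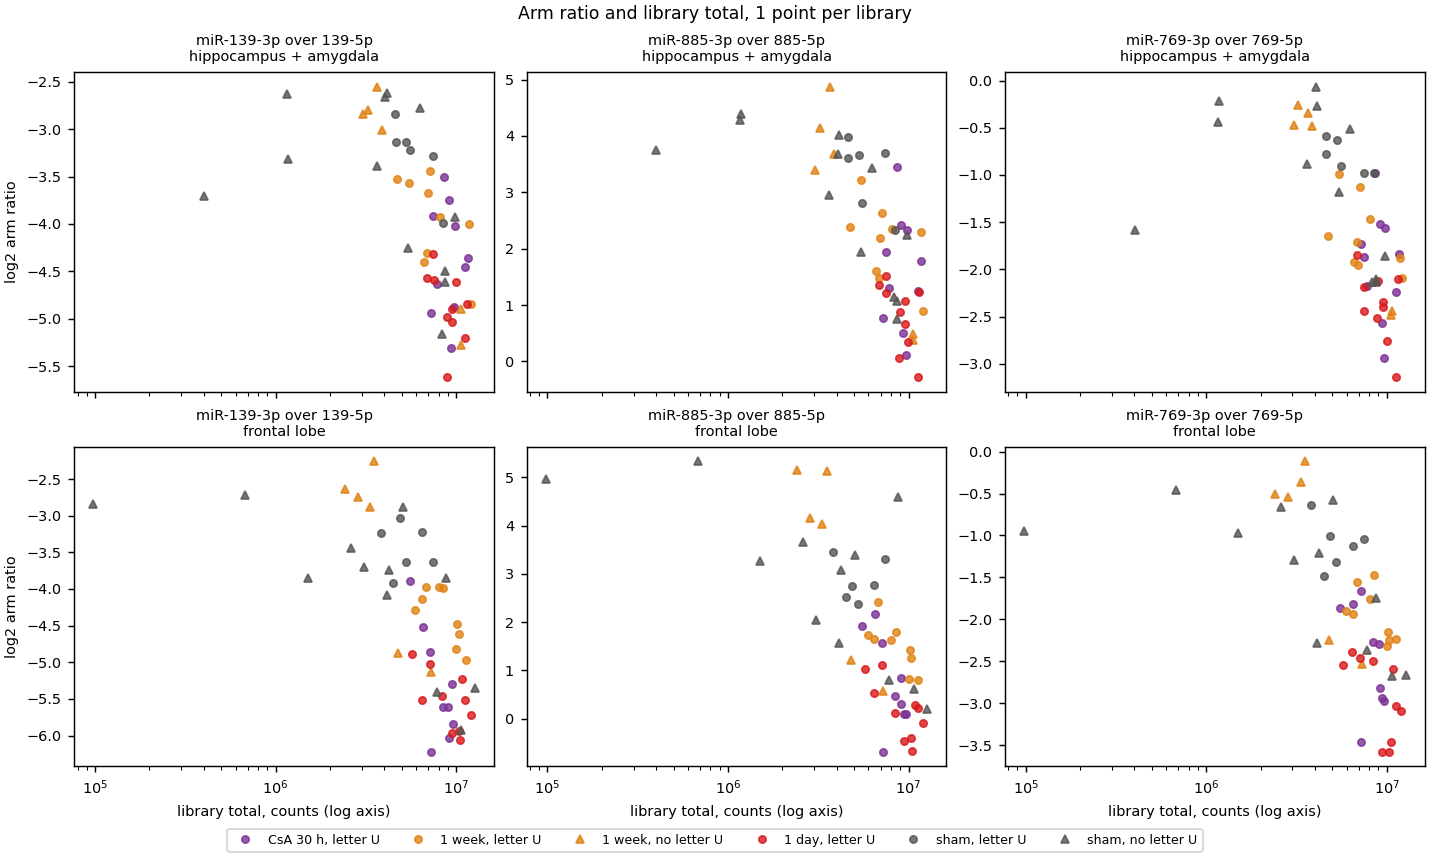
Log2 arm ratio of miR-139, miR-885 and miR-769 against the library total in counts (log axis), with 1 point per library coloured by group, circles for animal codes with a letter U and triangles for those without; the top row is the hippocampus with amygdala, the bottom row the frontal lobe. Over all libraries of a region the ratio is lower in larger ones. The 1 day and CsA libraries lie at large totals, as do some sham and 1 week libraries.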

How the data were processed

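Small RNA of fixed brain tissue from 105 libraries was analysed. Per the labels' protocols, RNA was isolated with the Mag-Bind FFPE RNA 96 Kit and libraries were made with the QIAseq miRNA kit, and Trimmomatic 0.39 and cutadapt 1.9.1 were used per the submitters' processing notes. The authors deposited a table of raw counts per mature miRNA, not normalized. The aligner, build, annotation and counting tool, and whether molecular identifiers served, were not given in the sources used here. Counts may not be independent molecules.

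Repeated entries were merged to the one with the highest total, leaving 448 miRNAs. In each region counts were tested with edgeR 4.0.16 (quasi-likelihood, TMM, filterByExpr with a minimum count of 10 and a minimum total of 15) in R 4.3.3 over 290 and 284 miRNAs, all 4 groups in 1 fit, at a Benjamini-Hochberg adjusted p of 0.05. The log2 ratio of the arms (0.5 added to each count) was tested with limma 3.58.1 over 59 precursors with both arms past the filter. Regions were compared within animals, paired by the animal code that both libraries of an animal carry, with the animal as a block. DESeq2 1.42.0 was an alternative. The scripts were tested on simulated counts. Plots used Python 3.11.15, pandas 2.3.3, NumPy 2.4.6 and matplotlib 3.10.9. CPM are counts per 1000000 of the TMM-scaled library size, scaled within each region, while the comparison of regions scaled both together. No pair of libraries of a group agreed within sampling noise (the smallest chi-square per degree of freedom was 20.6).

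The members and marker lists were chosen with earlier results of these data known. All 10 members are named; the other miRNAs named are the 5 with the highest Spearman's rho to the mean of the lowered arms and the 3 precursors with the largest arm difference at 1 day. A planned description of mature sequences was not done, and no sequences are shown.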

Additional observations from a re-analysis of the deposited data

Results flagged for a closer look

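In the frontal lobe at 1 day, replicate 2 had the lowest level of miR-139-5p, 6446 CPM against 7361 CPM in the nearest of the 10 libraries, a gap of 0.479 of the whole range on the log2 scale, which set it apart from the rest. Over 60 groups of values tested, chance gives such a gap in about 1 in 20 groups, and this was the 1 found.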

How the results depend on the processing

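The direction of the lowered arms was kept by RLE size factors, no filter, unmerged entries and let-7 left out of the scaling. Counts of the 10 members past the threshold moved with the set of animals. Shares of all miRNAs stand with the results above where they were counted. In this section, counts without such a share show only how the calls moved. Among codes 11 they were 0 for 1 week minus 1 day in both regions, 0 for frontal CsA minus 1 week and CsA minus sham, and 1 for hippocampal CsA minus sham; among codes 12 and 13 they were 0 for CsA minus sham in both regions. Among letter U codes, 1 week minus sham had 5 in frontal and 1 in hippocampal libraries. DESeq2 gave 2 for hippocampal CsA minus 1 day and 1 for CsA minus 1 week, and the log10 total as a covariate 0 for hippocampal CsA minus sham.

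Of the 5 arm ratios, codes 11 gave 0 for 1 week minus 1 day and for CsA minus sham in both regions and for frontal CsA minus 1 week, and codes 12 and 13 gave 0 for CsA minus sham in both regions. Letter U codes gave 4 for 1 week minus sham in both regions and 2 for frontal CsA minus 1 week. With at least 10 counts of both arms in every library, which left only miR-139 of the 5 precursors in the frontal lobe, the frontal count was 1 for 1 week minus 1 day, CsA minus 1 week and CsA minus sham. A pseudocount of 5 gave 1 for frontal CsA minus 1 week, leaving out libraries below 1000000 counts gave 5 for frontal 1 week minus 1 day, and the log10 total gave 0 for hippocampal CsA minus sham. The ratio of miR-423 at 1 day minus sham in the hippocampus with amygdala reversed to 0.24 among codes 12 and 13. The causes were not tested.

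Leaving out 1 library at a time, frontal members numbered 6 to 7 for 1 week minus 1 day, 3 to 6 for CsA minus 1 week, 6 to 7 for CsA minus sham, and 0 to 0 for CsA minus 1 day and 1 week minus sham; hippocampal ones 6 to 7, 0 to 1, 3 to 5, 0 to 0 and 0 to 0. Arm ratios numbered 3 to 5, 1 to 5, 4 to 5, 0 to 0 and 0 to 0 in frontal libraries and 3 to 3, 0 to 0, 3 to 3, 0 to 0 and 0 to 0 in hippocampal ones, in the same order. Without the replicate block of the animal, the region comparison called 7 members with CsA, 2 at 1 week, 6 at 1 day and 4 in sham animals, and 2, 0 and 0 arm ratios with CsA, at 1 day and in sham animals. The share of all miRNAs was not counted without the block. With it, 57%, 43%, 46.6% and 47.3% of all 298 miRNAs passed with CsA, at 1 week, at 1 day and in sham animals. Codes 12 and 13 hold no 1 week animals. The 3 sham libraries below 1000000 counts limit the rare arms miR-885-5p and miR-296-5p.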
